A study of Mus musculus with 8 samples.

Results

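The genes described are 39 that encode the machinery for cleavage and polyadenylation of mRNA, its poly(A)-binding proteins, the proteins of the U1 small nuclear ribonucleoprotein (snRNP), factors of transcription termination and part of the Integrator complex. They were taken by name from a fixed list, which was written with earlier results of these data known. Each matched 1 Ensembl identifier of the 45706 in the table, and all 39 were among the 15491 genes with enough counts to test. The data are poly(A) RNA-seq counts of 8 livers from male mice of a strain labelled C56B6/J. 4 mice, called *Srsf10-kd*, had received an adeno-associated virus (AAV2/8) carrying a mirE/shRNA against *Srsf10*, and the other 4, called *Ctrl*, the same kind of virus with a control mirE/shRNA. Both viruses also encode GFP under the chicken β-actin promoter, which is active in many cell types, and both groups were injected by tail vein at 6 weeks of age. 4 weeks later all mice began a high fat diet (HFD) with 60% of calories from fat, which lasted 12 weeks. Nothing in the labels states how litters or cages were spread over the groups, so the p-values measure the spread between these livers.

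The cut that ends most mRNAs is made by a few complexes that meet on the nascent RNA. The cleavage and polyadenylation specificity factor (CPSF) reads the poly(A) signal, a hexamer that is most often AATAAA in DNA letters, and its CPSF3 subunit cuts the RNA. The cleavage stimulation factor (CstF) binds a GU-rich element downstream, while the cleavage factors CFIm and CFIIm bind further elements and link the reaction to RNA polymerase II. The U1 snRNP, best known for its part in splicing, also keeps cleavage from happening early at signals inside introns, which is called telescripting. CDK12 and CDK13, kinases of the polymerase tail, and the tail-binding proteins SCAF4 and SCAF8 are known to keep intronic or early sites from being used. Counts per gene show how much RNA of these factors was present, and they do not show which poly(A) sites were used.

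Total counts ran from 50538612 to 59697241 in the *Ctrl* livers and from 50456404 to 56575926 in the *Srsf10-kd* livers. Levels are in CPM, counts scaled to the TMM-normalized library total, and at these depths the 39 genes had between 179 and 17265 counts in each liver. The targeted gene *Srsf10* was at 31.6, 33.7, 35.3 and 30.9 CPM in *Ctrl* 1 to 4 and at 34.3, 34.0, 41.0 and 36.5 CPM in *Srsf10-kd* 1 to 4. Its level was no lower in *Srsf10-kd*, with a log2 fold change of 0.15 (SE 0.10, edgeR adjusted p = 0.378), and the groups overlapped. The counts thus do not check the knockdown, and *Srsf10-kd* and *Ctrl* name the libraries by their labels throughout. Exchanged labels would turn the sign of every fold change given, and this was not tested. Of the 75-base windows of its exons, 8.50% also occur in other genes, while no exonic base of it lies under another gene. The effect of shared sequence on its count was not tested. Over 10% of the windows were shared in 8 of the 39 genes, *Nudt21*, *Pabpn1*, *Pabpc4*, *Ppp1cb*, *Snrpa*, *Ints11*, *Ssu72* and *Zc3h14*. The libraries differed in ways that the groups do not fully follow. The slope of log2 level on log2 transcript length was 0.09, 0.10, -0.03 and 0.14 in *Ctrl* 1 to 4 and -0.03, -0.02, -0.19 and -0.07 in *Srsf10-kd* 1 to 4, so *Ctrl* 3 lay with the *Srsf10-kd* livers and *Srsf10-kd* 3 apart from all others. Hepatocyte markers summed to 82068 to 107799 CPM in *Ctrl* and 97250.1 to 115230 CPM in *Srsf10-kd*. The 5 cholangiocyte markers, of bile duct cells, summed to 31.4 to 39.1 CPM in *Ctrl* and 46.5 to 68.6 CPM in *Srsf10-kd* without overlap, and their part in the results was not tested. The 3 erythroid markers summed to 269 to 345 CPM in *Ctrl* and 269 to 700 CPM in *Srsf10-kd*. The sums of the Kupffer cell, endothelial, stellate and lymphocyte lists overlapped between the groups, and the neutrophil list summed to at most 1.38 CPM. Of the 6 endothelial markers, 3 were higher and 3 lower on average. An unadjusted p under 0.05 was reached by *Lyve1* (log2 fold change 0.57), *Pecam1* (0.30) and *Stab2* (-0.57), 50% of the list against 21.8% of all genes. Their edgeR adjusted p ran from 0.139 to 0.201. In whole liver, fewer cells of a type and less RNA per cell cannot be told apart.

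The poly(A) signals of the genes on which the results turn are shown as examples of the element it reads. Among the 39 genes, 27 (69.2%) had AATAAA within the last 50 bases of their longest coding transcript, against 59.0% of 21944 protein-coding genes, 3 (7.69%) had only the variant ATTAAA, against 12.9%, and 9 (23.1%) had neither, against 28.0%. The search used the transcript strand alone. Of the 11 genes with an unadjusted p under 0.05 or with groups that did not overlap, 7 had a hexamer in this window, and *Papola*, *Papolg*, *Pabpn1* and *Cdk12* had none, which says only that these letters are not in the annotated last 50 bases. In the 30-base windows below, written 5′ to 3′ along the transcript as DNA, the capitals mark the hexamer. Each window lies in the last exon, and coordinates are on GRCm38 from the GENCODE M21 annotation.
Cpsf2 (chr12:102006395-102006424, plus strand): tatttcgctaataAATAAAagatgctgagc
Cstf2 (chrX:134086790-134086819, plus strand): ctgtcgtggattcAATAAAtattttaaaag
Pcf11 (chr7:92643555-92643584, minus strand): tacatatacagtATTAAAacttgtgatttt
Cdk13 (chr13:17710318-17710347, minus strand): aatgacataaagAATAAAaaatgtattgct
Scaf8 (chr17:3198825-3198854, plus strand): tttttagatgccAATAAAacttacttgttt
Xrn2 (chr2:147077968-147077997, plus strand): taaaaaaataaaAATAAAgctaaactttaa
Ssu72 (chr4:155733830-155733859, plus strand): tacagaaacctaAATAAAgcaacaggctgt
A match describes the annotated end and was not measured in these libraries.

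No gene of the 39 passed an adjusted p of 0.05. In the edgeR comparison of *Srsf10-kd* with *Ctrl*, 11 genes of all those tested passed (0.071%), each of them lower in *Srsf10-kd*. With DESeq2, 824 genes passed (5.27%) and again none of the 39 did. With limma-voom and sample quality weights, 1814 genes passed (11.7%), among them *Scaf8*, *Cdk12* and *Cdk13*, with adjusted p of 0.032, 0.0474 and 0.0336. An unadjusted p under 0.05 was reached by 9 of the 39 in edgeR (23.1%), close to the 21.8% of all genes. Of these, 7 were lower, which is 17.9% of the 39 against 10.6% of all genes, and 2 were higher, 5.13% against 11.2%. In 5 of the 39 (12.8%) all *Srsf10-kd* livers were lower than every *Ctrl* liver, against 7.53% of all genes, and in none were all of them higher, against 6.73%. The log2 fold change was below 0 in 23 of the 39 (59.0%) and in 48.7% of all genes, and its median was -0.09 in the 39 and 0.01 in all genes. The 95% interval of each of the 39 lay within 1 on the log2 scale on either side of 0, with bounds from -0.95 to 0.77, so a change of 2-fold or more was outside the interval for every gene, while smaller changes were not.

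**Figure D1:**
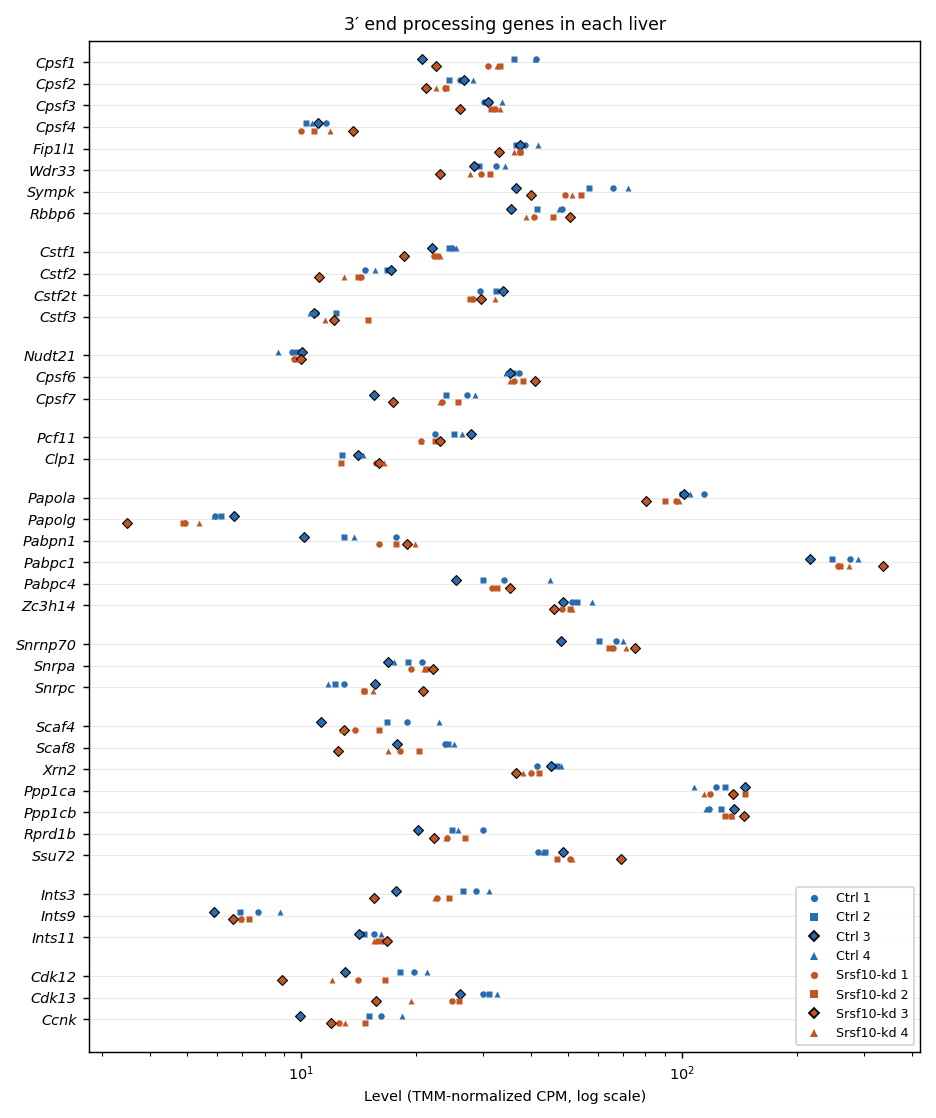
Level of each of the 39 genes in each liver, in TMM-normalized CPM on a log axis, with *Ctrl* livers in blue and *Srsf10-kd* livers in orange, and replicate 3 of each group outlined in black. The levels of most genes overlap between the groups. *Ctrl* 3 is the lowest of the 8 livers in 14 genes (against 14.6% of all genes). *Srsf10-kd* 3 is the lowest in 14 (against 26.9%) and the highest in 10 (against 29.8%).

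**Figure D2:**
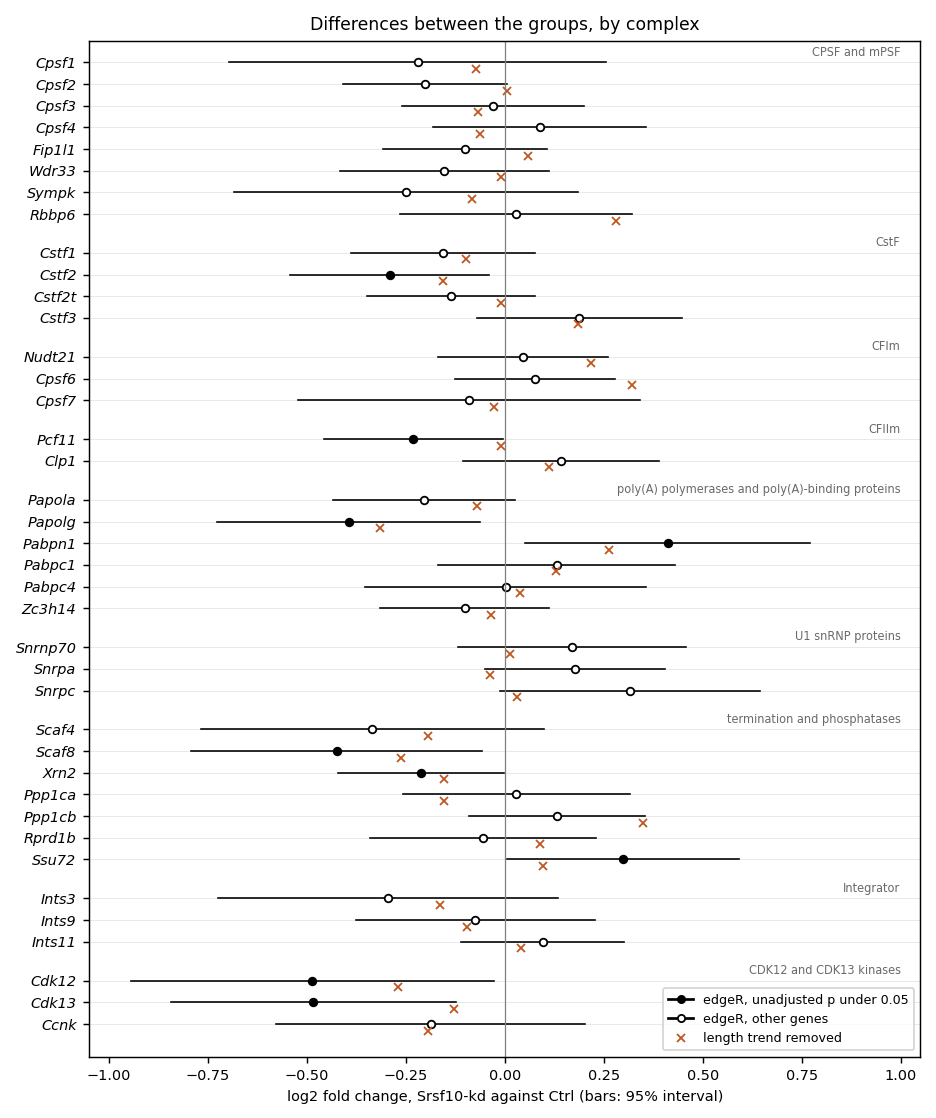
log2 fold change of each gene, *Srsf10-kd* against *Ctrl*, ordered by complex, with 95% intervals from edgeR (4 livers per group). Filled points mark the 9 genes with an unadjusted p under 0.05, and crosses the fold change once each library's trend with transcript length was removed.

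The CPSF subunits showed small differences in both directions. Of the 8 genes of this group, 6 were lower on average and 2 higher, with log2 fold changes from -0.25 to 0.09 and a median of -0.13. *Cpsf2*, which encodes a partner of the CPSF3 endonuclease, was at 26.0, 24.4, 26.7 and 28.2 CPM in *Ctrl* 1 to 4 and at 23.8, 24.0, 21.2 and 22.6 CPM in *Srsf10-kd* 1 to 4. Every *Srsf10-kd* liver was lower than every *Ctrl* liver, by a small margin (log2 fold change -0.20, SE 0.09, edgeR adjusted p = 0.237, exact permutation p = 0.0286, the smallest that 4 against 4 livers allow). With the length trend removed its log2 fold change was 0.0050. *Wdr33*, whose product reads the poly(A) signal together with that of *Cpsf4*, was at 32.3, 29.3, 28.4 and 34.2 CPM in *Ctrl* and at 29.7, 31.2, 23.1 and 27.7 CPM in *Srsf10-kd*, and *Srsf10-kd* 3 and 4 lay under the *Ctrl* range. For *Fip1l1*, whose product tethers poly(A) polymerase, the *Ctrl* livers were at 38.7, 36.6, 37.4 and 41.8 CPM and the *Srsf10-kd* livers at 37.6, 37.4, 32.9 and 36.1 CPM, so that only *Srsf10-kd* 3 and 4 lay under the *Ctrl* range. The endonuclease gene *Cpsf3* averaged 30.8 ± 3.19 CPM in *Srsf10-kd* and 31.4 ± 1.48 CPM in *Ctrl* (SD, n = 4 livers each), and *Cpsf4* averaged 11.6 ± 1.62 CPM and 10.9 ± 0.556 CPM. *Cpsf1*, the largest subunit, averaged 29.9 ± 4.93 CPM and 34.8 ± 9.61 CPM, with *Ctrl* 3 the lowest liver. *Sympk*, for the scaffold symplekin, averaged 48.7 ± 6.06 CPM and 57.9 ± 15.4 CPM, again with *Ctrl* 3 lowest. *Rbbp6*, which encodes an activator of cleavage, averaged 44.0 ± 5.30 CPM and 43.1 ± 5.94 CPM. Beside the margin of *Cpsf2*, no gene of this group had groups that did not overlap.

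In CstF, the RNA-binding subunit gene *Cstf2* was the one gene with an unadjusted p under 0.05. It was at 14.7, 16.7, 17.2 and 15.6 CPM in *Ctrl* 1 to 4 and at 14.3, 14.1, 11.1 and 12.9 CPM in *Srsf10-kd* 1 to 4, so every *Srsf10-kd* liver was lower (log2 fold change -0.29, SE 0.11, edgeR adjusted p = 0.191). Its paralog *Cstf2t* was at 29.5, 32.5, 33.7 and 33.9 CPM in *Ctrl* and 28.3, 27.8, 29.5 and 32.3 CPM in *Srsf10-kd*, with overlap. *Cstf1* averaged 21.7 ± 2.08 CPM in *Srsf10-kd* and 24.2 ± 1.53 CPM in *Ctrl*. *Cstf3*, for the subunit that holds the complex together, averaged 12.7 ± 1.52 CPM and 11.1 ± 0.807 CPM, with a log2 fold change of 0.19 (edgeR adjusted p = 0.341). The difference of *Cstf2* went to -0.16 once the length trend was removed.

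CFIm, which binds UGUA motifs and favours distal poly(A) sites, had log2 fold changes from -0.09 to 0.08, none past the test. *Nudt21*, its RNA-binding subunit, averaged 9.77 ± 0.171 CPM in *Srsf10-kd* and 9.47 ± 0.575 CPM in *Ctrl*. *Cpsf6* was at 37.3, 36.0, 35.2 and 34.5 CPM in *Ctrl* 1 to 4 and 36.2, 38.1, 41.1 and 35.2 CPM in *Srsf10-kd* 1 to 4. *Cpsf7*, the alternative large subunit, was at 27.3, 24.0, 15.5 and 28.5 CPM in *Ctrl* and 23.4, 25.7, 17.4 and 23.1 CPM in *Srsf10-kd*. The low values of *Cpsf7* were in replicate 3 of both groups. In CFIIm, *Pcf11*, whose product binds the polymerase tail and helps to end transcription, was at 22.4, 25.2, 27.9 and 26.4 CPM in *Ctrl* and 20.6, 22.4, 23.1 and 20.6 CPM in *Srsf10-kd*, and *Ctrl* 1 lay inside the *Srsf10-kd* range. Its log2 fold change was -0.23 (SE 0.10, edgeR adjusted p = 0.223) and -0.01 with the length trend removed. Its partner *Clp1*, an RNA kinase gene, averaged 15.2 ± 1.71 CPM in *Srsf10-kd* and 13.8 ± 0.744 CPM in *Ctrl*.

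Among the genes that make and bind the tail, both canonical poly(A) polymerases were lower in every *Srsf10-kd* liver. *Papola*, the more abundant, was at 114, 99.9, 101 and 105 CPM in *Ctrl* 1 to 4 and at 96.0, 90.0, 80.3 and 97.9 CPM in *Srsf10-kd* 1 to 4 (log2 fold change -0.20, SE 0.10, edgeR adjusted p = 0.267). *Papolg*, the least abundant of the 39 per kilobase, was at 5.94, 6.13, 6.64 and 5.88 CPM and 4.95, 4.88, 3.48 and 5.38 CPM in the same order (log2 fold change -0.39, SE 0.15, adjusted p = 0.182), with *Srsf10-kd* 3 well under the rest. Neither passed the test over all genes. With the length trend removed the log2 fold change of *Papola* was -0.07 and its groups overlapped, while that of *Papolg* was -0.32 without overlap, and without *Srsf10-kd* 3 and *Ctrl* 3 the log2 fold changes were -0.16 and -0.24. *Pabpn1*, for the nuclear poly(A)-binding protein, went the other way, at 17.7, 12.9, 10.2 and 13.7 CPM in *Ctrl* and 16, 17.7, 19.0 and 19.8 CPM in *Srsf10-kd*. Only *Ctrl* 1 reached the *Srsf10-kd* range (log2 fold change 0.41, SE 0.16, edgeR adjusted p = 0.194, or 0.26 with the length trend removed), and 17.5% of the 75-base windows of *Pabpn1* are shared, by overlap, with *Gm20521*. The cytoplasmic *Pabpc1* was at 275, 247, 217 and 289 CPM in *Ctrl* and 256, 259, 336 and 274 CPM in *Srsf10-kd*. *Pabpc4* was at 34.0, 30.1, 25.5 and 44.8 CPM and 31.7, 32.6, 35.4 and 35.0 CPM in the same order, and both genes overlapped between the groups. Since 44.8% of the windows of *Pabpc4* occur in another gene, its level is uncertain. *Zc3h14*, for a nuclear poly(A)-binding zinc-finger protein, averaged 49.2 ± 2.44 CPM in *Srsf10-kd* and 52.8 ± 3.97 CPM in *Ctrl*.

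All 3 genes for the U1-specific proteins were higher on average in *Srsf10-kd*, and none passed the test. *Snrnp70*, for the U1-70K protein that binds the first stem-loop of U1 RNA, averaged 69.0 ± 4.98 CPM in *Srsf10-kd* and 61.3 ± 9.56 CPM in *Ctrl* (log2 fold change 0.17, edgeR adjusted p = 0.429). *Snrpa*, for the A protein of U1, averaged 20.9 ± 1.12 CPM and 18.5 ± 1.74 CPM (log2 fold change 0.18, adjusted p = 0.316). *Snrpc*, for the C protein of U1, which contacts the 5′ splice site, averaged 16.4 ± 2.98 CPM and 13.1 ± 1.70 CPM (log2 fold change 0.32, adjusted p = 0.24). These are among the shortest transcripts of the 39, and with the length trend removed their log2 fold changes were 0.01, -0.04 and 0.03.

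The kinase genes *Cdk12* and *Cdk13* had the largest negative log2 fold changes of the 39. *Cdk13* was at 30, 31.2, 26.2 and 32.7 CPM in *Ctrl* 1 to 4 and 24.9, 25.9, 15.7 and 19.4 CPM in *Srsf10-kd* 1 to 4, without overlap (log2 fold change -0.48, SE 0.16, edgeR adjusted p = 0.155). *Cdk12* was at 19.8, 18.2, 13.0 and 21.3 CPM in *Ctrl* and 14.1, 16.6, 8.91 and 12.0 CPM in *Srsf10-kd*, and *Ctrl* 3 fell inside the *Srsf10-kd* range (log2 fold change -0.49, SE 0.21, adjusted p = 0.211). *Ccnk*, for their cyclin, averaged 13.1 ± 1.19 CPM in *Srsf10-kd* and 14.9 ± 3.58 CPM in *Ctrl* (log2 fold change -0.19, adjusted p = 0.521). *Cdk13* has the longest transcript of the 39, 12548 bases, and with the length trend removed the log2 fold changes of *Cdk12* and *Cdk13* were -0.27 and -0.13. Without *Ctrl* 3 and *Srsf10-kd* 3 they were -0.47 and -0.42.

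*Scaf8* was at 23.8, 24.3, 17.8 and 25.1 CPM in *Ctrl* 1 to 4 and 18.2, 20.3, 12.5 and 16.8 CPM in *Srsf10-kd* 1 to 4. *Ctrl* 3 alone lay among the *Srsf10-kd* livers (log2 fold change -0.42, SE 0.17, edgeR adjusted p = 0.192). When *Ctrl* 3 and *Srsf10-kd* 3 were both left out, *Scaf8* was the one gene of the 39 (2.56%, against 8.62% of all genes) to pass, with a log2 fold change of -0.40 and an adjusted p of 0.0313. With the length trend removed it was -0.26. *Scaf4*, its paralog, was at 18.9, 16.8, 11.2 and 23 CPM in *Ctrl* and 13.8, 16, 12.9 and 12.8 CPM in *Srsf10-kd*, with *Ctrl* 3 the lowest of the 8 and the others apart (log2 fold change -0.33, SE 0.19, adjusted p = 0.319). *Xrn2*, for the exonuclease that chases the polymerase after cleavage, was at 41.5, 47.0, 45.2 and 48.0 CPM in *Ctrl* and 40.0, 42.1, 36.7 and 38.3 CPM in *Srsf10-kd* (log2 fold change -0.21, SE 0.09, adjusted p = 0.227). Only *Ctrl* 1 and *Srsf10-kd* 2 crossed. *Ssu72*, for a phosphatase of the polymerase tail, was at 41.9, 43.7, 48.5 and 43.1 CPM in *Ctrl* and 50.8, 46.8, 68.9 and 51.2 CPM in *Srsf10-kd*, with *Srsf10-kd* 3 the highest (log2 fold change 0.30, SE 0.13, adjusted p = 0.223). It was 0.10 with the length trend removed and 0.17 without *Srsf10-kd* 3. *Ssu72* shares 13.6% of its windows, mostly with the overlapping *1500002C15Rik*. The protein phosphatase genes *Ppp1ca*, at 122, 129, 146 and 107 CPM in *Ctrl* and 119, 146, 136 and 114 CPM in *Srsf10-kd*, and *Ppp1cb*, at 117, 126, 137 and 115 CPM and 134, 129, 145 and 135 CPM, overlapped between the groups. *Rprd1b*, for another tail-binding protein, averaged 24.3 ± 1.89 CPM in *Srsf10-kd* and 25.2 ± 3.99 CPM in *Ctrl*.

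Of the Integrator, which cuts the ends of small nuclear RNAs and attenuates transcription, *Ints11*, the endonuclease gene, averaged 16.1 ± 0.510 CPM in *Srsf10-kd* and 15.1 ± 0.913 CPM in *Ctrl*. Its partner *Ints9* averaged 6.95 ± 0.282 CPM and 7.32 ± 1.22 CPM, and *Ints3* averaged 21.2 ± 3.92 CPM and 26.1 ± 5.86 CPM. All 3 overlapped between the groups (edgeR adjusted p from 0.366 to 0.753). Of 14 further genes listed with Integrator, 12 were lower on average, against 48.7% of all genes. The median log2 fold change of this list was -0.18, or -0.07 with the length trend removed. The one with an unadjusted p under 0.05 (7.14%, against 21.8% of all genes) was *Ints6l* (log2 fold change -0.40, SE 0.14, adjusted p = 0.162).

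Expressed per kilobase of transcript, the 39 genes covered a wide range of levels in *Ctrl*. *Pabpc1* (91.3 ± 11.4 CPM per kilobase, SD, n = 4 livers) and *Ppp1ca* (85.6 ± 10.9) led and did not differ beyond their spread. They were followed by *Snrnp70* (35.3 ± 5.51), *Ssu72* (30.1 ± 1.97) and *Papola* (23.9 ± 1.44). At the low end were *Papolg* (1.64 ± 0.0927), *Nudt21* (1.89 ± 0.115), *Cdk13* (2.39 ± 0.222) and *Ints9* (2.74 ± 0.454), of which the last pair overlap within their SD. These values divide by the longest coding transcript, so genes whose main transcript is shorter are set too low.

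Transcript length moved with the fold changes of the 39. The Spearman correlation across the 39 genes between log2 fold change and log2 length was -0.59, a description over genes that share the same 8 libraries, and across 15429 genes it was -0.53. Among the 15 with a transcript of at least 4500 bases, 11 had a log2 fold change below 0 (median -0.20, against -0.24 for the 3639 genes of that length). Among the 15 of 2500 to under 4500 bases, 11 were also below 0 (median -0.14, against -0.05), and among the 9 shorter ones 1 was (median 0.17, against 0.21). With the trend removed the median log2 fold change of the 39 was -0.03, against 0.004 for all genes. The 3 genes that then had an unadjusted p under 0.05 (7.69%, against 15% of all genes) were *Cpsf6* (log2 fold change 0.32), *Ppp1cb* (0.35) and *Papolg* (-0.32), and of those only *Papolg* had one before. *Ppp1cb* shares 15.9% of its 75-base windows with the overlapping *Gm43312*. The groups then did not overlap in 2 genes (5.13%, against 10.2% of all genes), *Cpsf6* being higher and *Papolg* lower in *Srsf10-kd*. In all, 23 of the 39 were below 0 (59.0%, against 49.4%), of which 20 had been below 0 before and 3, *Cpsf4*, *Ppp1ca* and *Snrpa*, had not. Length was not separated from group, because 3 of the 4 *Ctrl* libraries had a positive slope and all *Srsf10-kd* libraries a negative one, so a length trend in the libraries and a lower level of long genes in *Srsf10-kd* cannot be told apart.

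The number of the 39 genes that separated the groups changed with single livers. *Ctrl* 3 was the lowest of all 8 livers in 14 of the 39 genes, against 14.6% of all genes, and *Srsf10-kd* 3 was the lowest in 14 (against 26.9%) and the highest in 10 (against 29.8%). *Ctrl* 4 was the highest in 18, against 21.2% of all genes. Without *Ctrl* 3, the groups did not overlap in 17 of the 39 (43.6%, against 31.7% of all genes): 14 were lower in every *Srsf10-kd* liver (35.9%, against 16.4%) and 3 higher (7.69%, against 15.3%). The 14 were *Cpsf1*, *Cpsf2*, *Cstf1*, *Cstf2*, *Sympk*, *Papola*, *Papolg*, *Scaf4*, *Scaf8*, *Ints3*, *Cdk12*, *Cdk13*, *Ccnk* and *Zc3h14*, and the 3 were *Ppp1cb*, *Snrpc* and *Ssu72*. None of the 39 passed an adjusted p of 0.05 in edgeR without *Ctrl* 3, when 544 genes did (3.47%), and 10 had an unadjusted p under 0.05 (25.6%, against 28%). Without *Srsf10-kd* 3, 4 genes had an unadjusted p under 0.05 (10.3%, against 16.8%) and the groups did not overlap in 6 (15.4%, against 16.2%). Without both livers the groups did not overlap in 17 (43.6%, against 34.9%).

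The genes low in *Ctrl* 3 were mostly GC-rich. At a boundary of 50% GC in the longest coding transcript, chosen after the values were seen, *Ctrl* 3 was the lowest *Ctrl* liver in 13 of the 16 genes at or above it, with a median difference from the mean of the other *Ctrl* livers of -0.42 on the log2 scale. Among the 23 below it, this held for 8, and the median difference was -0.03. Over all genes the shares were 40.7% of 7587 and 24.5% of 7842, with median differences of -0.05 and 0.09. The lowest values were in *Cpsf1* (-0.92), *Sympk* (-0.82), *Scaf4* (-0.79) and *Cpsf7* (-0.78), the last with a GC content just under the boundary. The Spearman correlation of this difference with GC across the 39 genes was -0.50, and across all genes -0.23.

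**Figure D3:**
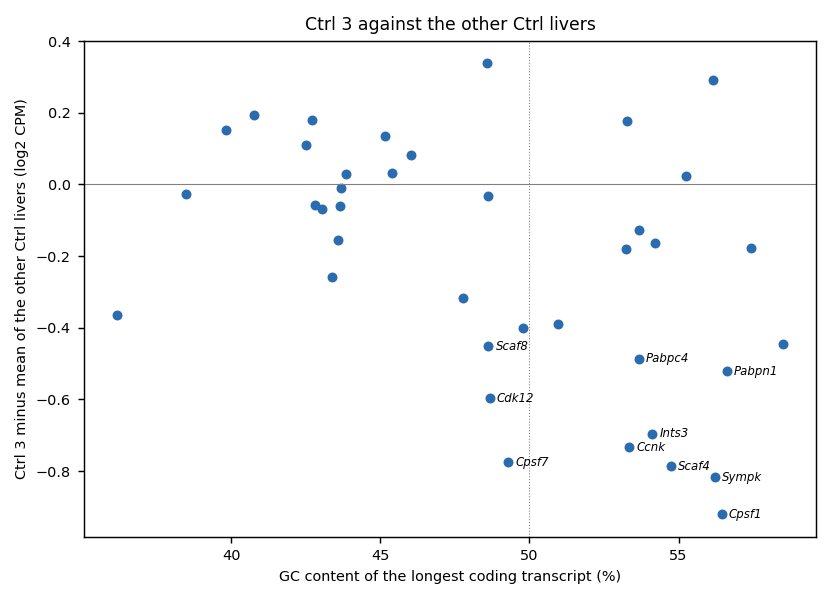
Difference of *Ctrl* 3 from the mean of *Ctrl* 1, 2 and 4, in log2 CPM, on the GC content of each of the 39 genes, with a dotted line at 50%. Of the 16 genes above 50% GC, 13 have *Ctrl* 3 as their lowest *Ctrl* liver.

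Several of the genes are paralogs with related roles, and their ratio within a liver is not affected by library size. In none of the 7 pairs did the difference in log2 ratio between the groups pass the test (two-sided exact permutation p from 0.114 to 1, from 0.667 to 1 when adjusted over the 7 pairs, with 0.0286 as the smallest p the design allows). *Cstf2* to *Cstf2t* was -1.17 ± 0.22 in *Srsf10-kd* and -1.01 ± 0.07 in *Ctrl* on the log2 scale. *Papola* to *Papolg*, the pair of polymerases, was 4.29 ± 0.16 in *Srsf10-kd* and 4.08 ± 0.15 in *Ctrl* on the log2 scale. *Cdk12* to *Cdk13* was -0.74 ± 0.09 in *Srsf10-kd* and -0.75 ± 0.19 in *Ctrl* on the log2 scale, and the difference between the groups, 0.0092, was -0.14 with the length trend removed. For *Scaf4* to *Scaf8* it was -0.27 ± 0.21 in *Srsf10-kd* and -0.41 ± 0.24 in *Ctrl* on the log2 scale. *Cpsf6* to *Cpsf7* was 0.76 ± 0.32 in *Srsf10-kd* and 0.62 ± 0.40 in *Ctrl* on the log2 scale, and replicate 3 of each group stood above the other livers. *Pabpc1* to *Pabpc4* was 3.06 ± 0.13 in *Srsf10-kd* and 2.96 ± 0.18 in *Ctrl* on the log2 scale, and *Ppp1ca* to *Ppp1cb* was -0.08 ± 0.18 in *Srsf10-kd* and 0.02 ± 0.09 in *Ctrl* on the log2 scale. The difference of the last pair was -0.10, and -0.52 with the length trend removed (exact permutation p = 0.0571).

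**Figure D4:**
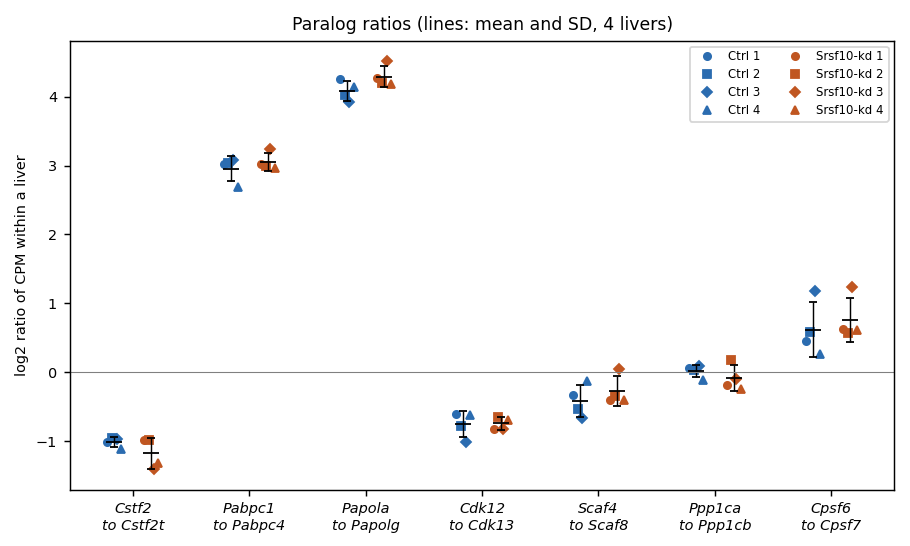
log2 ratio of CPM within each liver for 7 pairs of paralogs, with *Ctrl* livers in blue and *Srsf10-kd* livers in orange, and lines for the mean and SD of 4 livers. The groups overlap in every pair.

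Other genes that act at RNA ends were read in 7 further lists holding 90 tested genes, written with earlier results of these data known. None passed an adjusted p of 0.05 in edgeR, and 13 were higher and 9 lower at an unadjusted p under 0.05 (24.4% in all, against 21.8% of all genes). At an adjusted p of 0.05, limma-voom called 15 of the 90 and 11.7% of all genes, and DESeq2 10 of the 90 and 5.27% of all genes. The Sm proteins, which form the ring of each spliceosomal snRNP, and the U1 auxiliary factors were the list with most of the higher genes. Of its 15 genes, 10 were higher on average (median log2 fold change 0.37, against 0.01 for all genes), and 7 of these had an unadjusted p under 0.05 (46.7% of the list, against 11.2% of all genes in that direction). The summed level of the list was 630 to 822 CPM in *Srsf10-kd* and 595 to 612 CPM in *Ctrl*. *Luc7l3*, for a U1-associated protein, was at 79.9 ± 17 CPM in *Srsf10-kd* and 51.9 ± 7 CPM in *Ctrl* (log2 fold change 0.62, SE 0.16, edgeR adjusted p = 0.119). The Sm gene *Snrpd1* was at 13.9 ± 3.16 CPM in *Srsf10-kd* and 9.34 ± 1.03 CPM in *Ctrl* (log2 fold change 0.58, SE 0.16, edgeR adjusted p = 0.129). *Rbm25*, for another U1-associated protein, was at 122 ± 44.3 CPM in *Srsf10-kd* and 84.5 ± 6.43 CPM in *Ctrl* (log2 fold change 0.53, SE 0.21, edgeR adjusted p = 0.198). The others were *Snrpd3*, *Snrpe*, *Snrpf* and *Snrpg*, with log2 fold changes of 0.42, 0.57, 0.62 and 0.51. With the length trend removed the median of this list was 0.19. The log2 fold changes were then 0.26 for *Snrpd1*, 0.44 for *Snrpd3*, 0.19 for *Snrpe*, 0.29 for *Snrpf* and 0.22 for *Snrpg*. For *Luc7l3* and *Rbm25* they were 0.83 and 0.68. The list was picked out after its values were seen, so its share beside that of all genes is a description only. Reads shared with pseudogenes were not checked for it.

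Among 11 termination and polymerase tail factors, 8 were lower on average, against 48.7% of all genes, and the median log2 fold change was -0.24, or -0.05 with the length trend removed. *Rprd1a*, for a relative of RPRD1B, was at 6.60 ± 1.84 CPM in *Srsf10-kd* and 10.6 ± 0.464 CPM in *Ctrl* (log2 fold change -0.68, SE 0.20, edgeR adjusted p = 0.133). *Tox4* and *Ctdp1* also had an unadjusted p under 0.05, with log2 fold changes of -0.24 and -0.37, or -0.05 and -0.29 with the length trend removed. Of 13 regulators of 3′ end choice, *Virma*, for a subunit of the m6A methyltransferase, was at 17.5 ± 2.42 CPM in *Srsf10-kd* and 26.5 ± 1.36 CPM in *Ctrl* (log2 fold change -0.60, SE 0.12, edgeR adjusted p = 0.0935) and passed in DESeq2, at an adjusted p of 0.00184, and in limma-voom, at 0.00727. *Elavl1*, for the RNA-binding protein HuR, and *Srsf7*, for an SR protein, were higher on average, with log2 fold changes of 0.31 and 0.32 (edgeR adjusted p = 0.15 and 0.154). Of 19 genes of nuclear RNA surveillance, 21.1% had an unadjusted p under 0.05, against 21.8% of all genes. The exosome genes *Exosc9* (0.40) and *Exosc7* (0.47) and the cap-binding gene *Ncbp2* (0.32) were higher on average, on the log2 scale. The exosome nuclease gene *Dis3* (-0.46) was lower (edgeR adjusted p of these genes from 0.116 to 0.202). Of 14 deadenylation genes, *Cnot1*, for the scaffold of the CCR4-NOT complex, was at 56.0 ± 13.8 CPM in *Srsf10-kd* and 95.3 ± 21.4 CPM in *Ctrl* (log2 fold change -0.77, SE 0.22, edgeR adjusted p = 0.131), and *Cnot8*, for one of its deadenylases, at 38.5 ± 1.78 CPM in *Srsf10-kd* and 32.0 ± 1.97 CPM in *Ctrl* (log2 fold change 0.27, SE 0.09, edgeR adjusted p = 0.159). Of 4 genes of histone mRNA 3′ ends, *Casp8ap2* was lower on average (log2 fold change -0.36, adjusted p = 0.15). With the length trend removed the log2 fold changes were -0.56 for *Rprd1a*, -0.36 for *Virma*, 0.53 for *Elavl1* and 0.27 for *Srsf7*. They were then 0.23 for *Exosc9*, 0.18 for *Exosc7*, 0.22 for *Ncbp2*, -0.28 for *Dis3*, -0.46 for *Cnot1*, 0.18 for *Cnot8* and -0.12 for *Casp8ap2*. *Ints15* and *Exosc6* matched no symbol and were not analysed here, and *Zfp473* had too few counts.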

How the data were processed

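Liver poly(A) RNA of 8 mice was made into directional libraries with paired-end reads. Alignment to GRCm38 (mm10) and counting were done by the authors in STAR 2.7.7a, who deposited raw read counts per gene and liver without normalization. The annotation release, the strand column and read filters are not given in the sources used here. The 39 genes, the other lists and the tests were chosen with earlier results of these data known. Each of the 8 columns was matched to a liver by its label, and 0 columns were left unused. Counts were tested in R 4.3.3 with edgeR 4.0.16 (TMM, filterByExpr, quasi-likelihood fit on condition alone, two-sided, Benjamini-Hochberg adjustment over 15491 genes, threshold 0.05). DESeq2 1.42.0, the tool of the authors, and limma 3.58.1 (voom with sample quality weights) were alternatives. Other alternatives were scaling by DESeq2's size factors or by library size only, no filter, at least 10 counts in every liver, a prior count of 0.5 in place of 2, removal from each library of its lowess trend (span 0.5) with transcript length or with GC, a block for the replicate number, the omission of each single liver and, added after the data were seen, *Ctrl* 3 and *Srsf10-kd* 3 left out together. Groups were called not overlapping when every liver of one lay above every liver of the other in CPM. Single genes and ratios had two-sided exact permutation tests over 70 assignments of the livers.

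Values in every liver are given for *Srsf10*, for genes with an unadjusted p under 0.05 or groups that do not overlap, for 6 polyadenylation factors the study examined with SRSF10 (*Cpsf2*, *Cpsf6*, *Cpsf7*, *Fip1l1*, *Wdr33*, *Pcf11*) and for 7 pairs of paralogs. Of the other lists, genes with an adjusted p under 0.05 were to be named or else up to 2 with the smallest p, and the further ones with an unadjusted p under 0.05 were named after their values were seen. The result of 1 gene of the termination list is not reported here. Symbols, positions, transcripts and sequences were taken from GENCODE M21 (GRCm38), where 45143 of the 45706 identifiers were found. A length was found for 15429 tested genes. All 28 pairs of columns differed far beyond counting noise (chi-square per degree of freedom of at least 46.5). On simulated counts of 15279 genes with 200 changed by 1.5 on the log2 scale, edgeR recovered 199 with 3 false calls. In the same simulation limma-voom recovered 199 with 4 false calls, and DESeq2, over 15491 genes, 198 with 20. The log2 fold changes of the genes described ran only from -0.49 to 0.41. Recovery of changes of that size was not tested, so the simulation does not show how many would be missed. Intervals cover the spread between livers only.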

Additional observations from a re-analysis of the deposited data

Results flagged for a closer look

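In 2 of the 80 groups of 4 livers examined, 1 liver stood apart from the other 3 by more than Dixon's test allows for 4 values, and chance flags about 1 group in 20, or 4 of these 80. *Cstf1* was at 18.6 CPM in *Srsf10-kd* 3 and at 22.3 to 23.1 CPM in the other *Srsf10-kd* livers. *Snrpc* was at 20.8 CPM in *Srsf10-kd* 3 and at 14.6 to 15.4 CPM in the others. Both are in the liver with the steepest length slope (-0.19) of the 8.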

How the results depend on the processing

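None of the 39 genes passed an adjusted p of 0.05 in the edgeR comparison, where 9 had an unadjusted p under 0.05. The exceptions among the alternatives were limma-voom, with 3 lower genes, and edgeR without *Ctrl* 3 and *Srsf10-kd* 3, with 1. With 1 liver left out the number was 0 each time. Over all genes, the 11 calls became 824 with DESeq2, 1814 with limma-voom, 46 without a filter and 1342 without *Ctrl* 3 and *Srsf10-kd* 3. With 1 liver left out they ran from 0 to 544, with 4 without *Ctrl* 1, 5 without *Ctrl* 4, 64 without *Srsf10-kd* 3, 544 without *Ctrl* 3 and 0 without any of the other 4. The 9 genes with an unadjusted p under 0.05 became 3 with the length trend removed, and 2 to 10 with 1 liver left out (2 without *Ctrl* 2 or *Srsf10-kd* 4, 3 without *Ctrl* 4 and 4 without *Srsf10-kd* 3). The 5 genes whose groups do not overlap became 2 with the length trend removed (against 10.2% of all genes) and 17 without *Ctrl* 3 and *Srsf10-kd* 3 (against 34.9%). With 1 liver left out they ran from 5 to 17 (17 without *Ctrl* 3, against 31.7% of all genes, 10 without *Ctrl* 1 and 8 without *Srsf10-kd* 2). For the unadjusted p and for overlap, shares of all genes were not computed without a single liver other than *Ctrl* 3 or *Srsf10-kd* 3. The counts there are not set against all genes. The cause of these changes in number was not tested, and where livers were left out the groups were also smaller. A count of groups that do not overlap has no form of its own under DESeq2, limma-voom or the block. The labels do not say that a replicate number marks a shared animal, batch or day. Same-numbered livers had deviations that correlated at -0.18, 0.21, 0.27 and 0.22, and 5 of the 8 livers correlated best with their own number. The numbers were not taken to pair the livers in the main fit, because not every pair exceeded 0.1, the bound used. Whether same-numbered livers share something was not tested. With the replicate block 59 genes in all passed and none of the 39.

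Direction held under every alternative for 27 of the 39 genes, and *Srsf10* stayed above 0 with an adjusted p over 0.05. The log2 fold changes that changed sign were small. With the length trend removed they were 0.0050 for *Cpsf2*, -0.062 for *Cpsf4*, 0.058 for *Fip1l1*, -0.15 for *Ppp1ca*, -0.037 for *Snrpa* and 0.090 for *Rprd1b*. With the GC trend removed they were -0.026 for *Rbbp6*, -0.0028 for *Pabpc4* and -0.0015 for *Ppp1ca*. With limma-voom they were 0.048 for *Cpsf3*, -0.085 for *Rbbp6* and -0.023 for *Ppp1ca*. With DESeq2 it was -0.011 for *Pabpc4*. With library size only it was -0.0057 for *Pabpc4*. Without a filter it was -0.0089 for *Pabpc4*. Without *Ctrl* 3 and *Srsf10-kd* 3 they were 0.034 for *Cpsf3*, -0.13 for *Rbbp6*, -0.038 for *Pabpc1* and -0.13 for *Pabpc4*. With 1 liver left out, the log2 fold changes, or differences of ratios, ran from -0.070 to 0.043 for *Cpsf3* (sign changed without *Ctrl* 4 or *Srsf10-kd* 3), -0.00034 to 0.16 for *Cpsf4* (sign changed without *Srsf10-kd* 3), -0.25 to 0.013 for *Cpsf7* (sign changed without *Ctrl* 4 or *Srsf10-kd* 3), -0.057 to 0.085 for *Rbbp6* (sign changed without *Ctrl* 3 or *Srsf10-kd* 3), -0.11 to 0.17 for *Pabpc4* (sign changed without *Ctrl* 2, *Ctrl* 3, *Srsf10-kd* 3 or *Srsf10-kd* 4), -0.043 to 0.10 for *Ppp1ca* (sign changed without *Ctrl* 4 or *Srsf10-kd* 2), -0.17 to 0.022 for *Ints9* (sign changed without *Ctrl* 4), -0.15 to 0.038 for *Rprd1b* (sign changed without *Ctrl* 1), -0.076 to 0.059 for the ratio of *Cdk12* to *Cdk13* (sign changed without *Ctrl* 3, *Srsf10-kd* 2 or *Srsf10-kd* 4) and -0.019 to 0.33 for the ratio of *Cpsf6* to *Cpsf7* (sign changed without *Srsf10-kd* 3). The difference between the groups in the log2 ratio of *Cdk12* to *Cdk13* went from 0.0092 to -0.14 with the length trend removed. The ratio of *Papola* to *Papolg* had an exact permutation p of 0.0286 without *Ctrl* 1 (difference 0.26) and of 0.0857 to 0.257 under its other settings.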
